A study of Mus musculus with 4 samples.

Results

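The annexins are a family of cytosolic proteins that bind phospholipid membranes when calcium rises, and 9 of them, Anxa1 to Anxa8 and Anxa11, are described here in mesenchymal stromal cells (MSCs) of adult mouse bone marrow. They were taken by gene symbol from the 56980 genes of the deposited count table, and all 9 were found. The cells carried CD51 and PDGFRa and lacked CD45, Ter119, CD31 and Sca1 in the sort, and came from 4 wild-type male C57BL/6J mice of an inbred in-house colony, aged 14 weeks, with 100 cells and 1 library for each mouse. There is no second genotype, treatment or age, so all 4 libraries form 1 group and the comparisons are between genes within the same mouse. The labels name a mouse for each library, and the spread given is that between these 4 libraries.

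Annexins share a core of folded repeats that holds calcium between the protein and acidic lipids such as phosphatidylserine, and they differ mainly in the stretch of protein that precedes this core. They are known for arranging membrane in secretion and endocytosis, for sealing injured plasma membrane and, outside the cell, for binding the phosphatidylserine that dying cells expose. In cells that mineralize bone and cartilage, several annexins are found in matrix vesicles, the small membrane sacs in which the first mineral forms.

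The libraries held between 22738604 and 43545349 counts, with mice 1 and 3 the deeper pair, and 16109 to 18907 genes had at least 1 count. Levels are given as TPM, which divides a count by the length of the gene's exons and scales each library to 1000000. The genes of the sorted antigens PDGFRa and CD51 were present, with Pdgfra at 30.7 to 48.2 TPM and Itgav at 12.9 to 18.1 TPM, and all 7 marrow stroma markers reached a median TPM above 1. Of the antigens used to exclude cells, Ptprc (CD45) and Pecam1 (CD31) stayed under 0.3 TPM, and Ly6a (Sca1) lay between 0 and 11.6 TPM. The 5 osteoblast markers Bglap, Ibsp, Sp7, Alpl and Col1a1 summed to between 100027 and 196750 TPM, which made osteoblast-lineage RNA abundant in all 4 libraries. The 6 adipocyte markers summed to 200, 962, 439 and 234 TPM in mice 1 to 4, with 3 of 6 expressed. Of the stroma markers, Cxcl12, Lepr, Ebf3 and Foxc1 were lowest in mouse 1 and highest in mouse 2. Cxcl12 was at 983 TPM in mouse 1 and 4329 TPM in mouse 2. Pdgfra was also highest in mouse 2, while Itgav and Prrx1 were highest in mouse 1. The part of these differences in the spread of the annexins was not tested. In these bulk libraries, fewer cells of a type and less RNA per cell cannot be told apart.

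All 9 annexins reached a median TPM above 1, the cutoff that the study's methods use for an expressed gene, and 7 of these exceeded 1 TPM in each library. Over all genes with a known length, 22.9% reached that median and 15.4% exceeded 1 TPM in each library. Among protein-coding genes the shares were 44.2% and 30.1%. The calls of Anxa8 and Anxa11 rest on few mice, since the median of Anxa8 was not above 1 TPM without mouse 1 or without mouse 3, and that of Anxa11 without mouse 2 or without mouse 4. The family has 12 genes in the table, and the 3 that are not among the 9, Anxa9, Anxa10 and Anxa13, did not reach the cutoff. Anxa10 and Anxa13 had 0 counts in all 4 libraries, where 3 counts correspond to between 0.0689 and 0.132 in 1000000 counts, and Anxa9 had 0, 4, 0 and 8 counts in mice 1 to 4. The median of the 9 medians was 39.5 TPM, against 0.135 TPM over all protein-coding genes. The 9 members were chosen with earlier results of these data known, and the 3 left out are below the cutoff. The count of 9 and this contrast are therefore a description of the chosen genes and no test of the family.

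**Figure D1:**
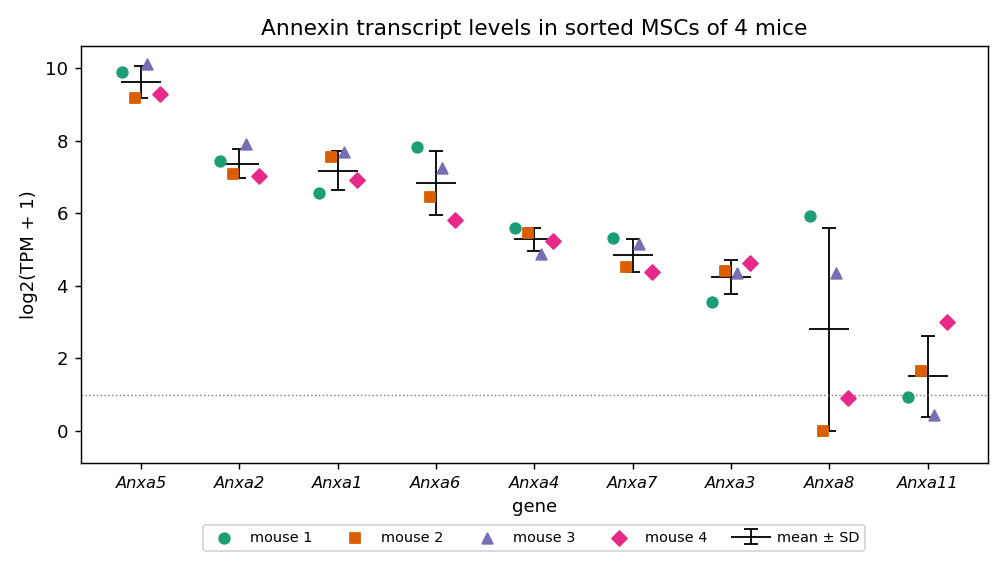
Level of each of the 9 annexins (x axis) as log2(TPM + 1) (y axis), with 1 point for each mouse, the mean and SD over 4 mice in black and a dotted line at 1 TPM. Anxa5 lies above all others in every mouse, while Anxa8 and Anxa11 have the widest spread.

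Anxa5 was the most abundant annexin by a wide margin. It binds phosphatidylserine with high affinity, is the protein used in its labelled form to stain dying cells, and is a main protein of matrix vesicles. The counts of mice 1 to 4 were 29502, 11376, 33726 and 11499, or 944, 575, 1098 and 626 TPM. Its mean was 811 ± 252 TPM (SD, n = 4), and it ranked 128 of 52125 genes by median TPM. The values were higher in mice 1 and 3 than in mice 2 and 4, a difference of at most 1.91-fold. The values varied by 31.0% of their mean (coefficient of variation), where the counting of reads alone would give 0.701%. PCR copies are not independent molecules, so the latter figure covers counting only and not the sampling of RNA. The coefficient of variation was above that of 66.5% of the genes with a mean between 100 and 1000 TPM. In GRCm38 the gene occupies bases 36448923 to 36475894 of chromosome 3, on the minus strand, and it shares no exonic bases with another annotated gene.

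The next 3 annexins lay close together. Anxa2, which pairs with S100a10 under the plasma membrane and at the cell surface, was at 173, 135, 237 and 130 TPM in mice 1 to 4, with a mean of 169 ± 49.3 TPM (SD, n = 4). Anxa1, a glucocorticoid-induced protein that dampens neutrophil recruitment once it is released, was at 93.1, 185, 206 and 119 TPM. Its mean was 151 ± 53.5 TPM (SD, n = 4). Anxa6, whose core is duplicated and which binds late endosomes and the plasma membrane, was at 227, 86.5, 151 and 55.2 TPM, with a mean of 130 ± 76.2 TPM (SD, n = 4). Mouse 3 was highest for Anxa2 and Anxa1 and mouse 1 for Anxa6, and the ranges of the 3 genes overlapped. In GRCm38, Anxa2 occupies bases 69453620 to 69491795 of chromosome 9 (plus strand), Anxa1 bases 20373428 to 20390944 of chromosome 19 (minus strand) and Anxa6 bases 54979108 to 55033445 of chromosome 11 (minus strand). Anxa6 varied more than most genes of its level, with a coefficient of variation of 58.6% that was above that of 94.0% of the 911 genes whose mean lay between 100 and 1000 TPM, for which the median was 23.5%.

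Of the 9 annexins, 7 had a promoter among the RefSeq sequences of GRCm38.p6, and 9 promoters were listed for them, each with 250 bases before the start of transcription and 50 after it. The 60 bases directly before the start are shown on the gene's own strand for the highest annexin, for the pair that followed it and for Anxa8, which was present in some libraries and not in others. The RefSeq start need not be the end of the GENCODE gene span given here, which covers all annotated transcripts: the windows of Anxa2 and Anxa1 lie inside that span, and the window of Anxa5 overlaps its edge. The 6 bases of the TATA motif TATAAA are in capitals where they occur.
Anxa5, chr3:36475888-36475947, minus strand: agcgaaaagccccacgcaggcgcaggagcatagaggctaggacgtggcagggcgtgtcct
Anxa2, chr9:69453623-69453682, plus strand: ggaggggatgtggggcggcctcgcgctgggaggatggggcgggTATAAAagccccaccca
Anxa1, chr19:20390672-20390731, minus strand: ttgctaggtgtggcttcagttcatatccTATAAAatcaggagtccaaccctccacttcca
Anxa8, chr14:34085919-34085978, plus strand: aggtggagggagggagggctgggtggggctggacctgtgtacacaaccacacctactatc

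TATAAA was found on the gene's strand in the promoters of Anxa1, from 32 to 27 bases before the start, and of Anxa2, from 17 to 12 bases before it. It was in none of the other 7 annexin promoters, on either strand. Of all 32851 promoters, 2.87% hold it on the gene's strand and 3.92% on either strand in the same window. Over the full 300 bases, the promoter of Anxa5 has 16 CpG dinucleotides, that of Anxa2 13, that of Anxa8 5 and that of Anxa1 3, where the median of all promoters is 7. These matches are a description of the sequence, and the libraries do not measure binding.

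Anxa4, Anxa7 and Anxa3 formed a lower tier. Anxa4, which is best known from secretory epithelia, was at 47.2, 42.7, 28.1 and 36.3 TPM in mice 1 to 4 and had the smallest relative spread of the family, with a mean of 38.6 ± 8.29 TPM (SD, n = 4). Anxa7 carries a long stretch rich in glycine, proline and tyrosine before its core and takes part in membrane fusion. It was at 38.6, 22.01, 34.6 and 19.9 TPM, with a mean of 28.8 ± 9.22 TPM (SD, n = 4). Anxa3, an annexin abundant in neutrophil granules, was at 10.8, 20.3, 19.5 and 23.6 TPM, with a mean of 18.5 ± 5.46 TPM (SD, n = 4). All 3 genes were above 10 TPM in every library. Their GRCm38 positions are chromosome 6, bases 86736840 to 86793584, for Anxa4, chromosome 14, bases 20455260 to 20480133, for Anxa7 and chromosome 5, bases 96793339 to 96845966, for Anxa3. Anxa7 was higher in mice 1 and 3, as Anxa5 was, and Anxa3 was lowest in mouse 1.

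Anxa8 and Anxa11 had the lowest medians of the family and the largest relative spread, although the mean of Anxa8 was above that of Anxa3. The coefficient of variation of Anxa8, 139%, was above that of 97.8% of the genes with a mean between 10 and 100 TPM. That of Anxa11, 117%, was less unusual, above 64.1% of the genes between 1 and 10 TPM, whose median was 89.6%. Anxa8, an annexin of epithelia that is also known from acute promyelocytic leukaemia, had 1955, 0, 634 and 17 counts in mice 1 to 4, which are 59.1, 0, 19.5 and 0.875 TPM. It was thus above Anxa4, Anxa7 and Anxa3 in mouse 1, level with Anxa3 in mouse 3, under 1 TPM in mouse 4 and not detected in mouse 2, where 3 counts would be 0.143 TPM. The gene occupies bases 34085981 to 34100571 of chromosome 14 in GRCm38. Its mean of 19.9 ± 27.7 TPM (SD, n = 4) is smaller than its SD. Of the 5839 protein-coding genes with at least 1000 counts in some library, 316 (5.41%) had 0 counts in another, and in 212 of the 316 mouse 2 was at 0. Mouse 2 also had the fewest detected genes.

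The markers of red blood cell precursors ranked the mice as Anxa8 did. The 6 erythroid markers summed to 4925, 35.0, 1690 and 355 TPM in mice 1 to 4. All 6 had a median above 1 TPM, and Slc4a1, the anion exchanger of the red cell membrane, had 3478, 0, 1701 and 179 counts. Alas2, which starts haem synthesis in these cells, had 845, 0, 308 and 0 counts. For both genes mouse 1 was highest and mouse 3 second, and mouse 2 was at 0. The chondrocyte markers summed to 30.2, 5.17, 12.4 and 1.42 TPM and were also highest in mouse 1, with 2 of 5 expressed. Of these 2, Sox9 was highest in mouse 1, at 23.3 TPM, and Col9a1 in mouse 3, at 12.2 TPM against 1.82 TPM in mouse 1. The 5 megakaryocyte markers, none of them expressed by the cutoff, summed to 7.95, 0, 0.683 and 0 TPM, of which Gp9 gave 122 counts in mouse 1. The sort excluded cells with the red cell antigen Ter119. Mice 1 and 3 were also the highest for some genes outside these lists. Camp, a neutrophil marker, had 120, 0, 36 and 0 counts, and Cav1, a membrane repair gene, had 466, 0, 112 and 0. The 8 neutrophil markers together summed to 39.7, 19.7, 6.84 and 7.84 TPM, which ranked the mice otherwise. The part of any of these cell types in the level of Anxa8 was not tested.

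**Figure D2:**
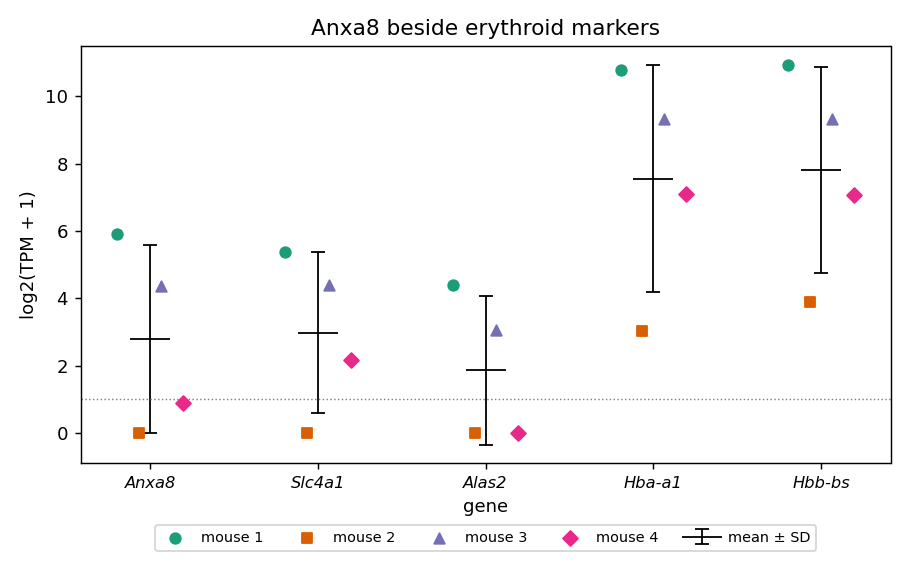
Anxa8 and 4 erythroid markers (x axis) as log2(TPM + 1) (y axis), with 1 point for each mouse, the mean and SD over 4 mice in black and a dotted line at 1 TPM. Mouse 1 is highest and mouse 3 second for each gene, and mouse 2 is at 0 for Anxa8, Slc4a1 and Alas2.

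Anxa11 binds the calcium sensor Pdcd6 and tethers RNA granules to lysosomes. It had 67, 98, 25 and 300 counts in mice 1 to 4, or 0.921, 2.13, 0.350 and 7.02 TPM. The mean was 2.61 ± 3.04 TPM (SD, n = 4) and the range 20.1-fold. Only mice 2 and 4 were above 1 TPM. In GRCm38 the gene occupies bases 25842156 to 25886804 of chromosome 14, on the plus strand. Copies of 95% identity or more exist for 28.6% of its longest transcript, mostly in the pseudogenes Gm2260, from 26016431 to 26025837, and Gm2274, from 26156036 to 26163648 on the same chromosome. The authors counted only pairs mapped to 1 place, and how many pairs of Anxa11 this left out was not measured, so its level is uncertain. Neither Gm2260 nor Gm2274 was found among the 56980 counted genes, so no counts of their own can be given. Of the other 8 members only Anxa4 has such copies, over 4.88% of its longest transcript.

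The order of the family by median TPM was Anxa5, Anxa2, Anxa1, Anxa6, Anxa4, Anxa7, Anxa3, Anxa8 and Anxa11. Of the 36 pairs of members, 27 had the same order in all 4 mice. The other 9 pairs involve Anxa2, Anxa1 and Anxa6 with each other, Anxa4 with Anxa7, Anxa7 with Anxa3, or Anxa8 with Anxa4, Anxa7, Anxa3 and Anxa11. Neighbours in the order were compared within mice, on the scale of log2(TPM + 1). Together with 2 pairs of an annexin and its S100 partner this made 10 comparisons. With 4 mice the exact two-sided sign-flip permutation test cannot give a p below 0.13, so none of them could pass 0.05. The order was taken from the same libraries, so the sort largely set the direction of each neighbour difference. The p-values of neighbours therefore do not test an order stated in advance.

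Anxa5 exceeded Anxa2 in 4 of 4 mice, by 2.25 ± 0.15 in log2(TPM + 1) (SD, n = 4, exact permutation p = 0.13, adjusted p = 0.417). Anxa6 exceeded Anxa4 in 4 of 4 mice, by 1.56 ± 0.90 (SD, n = 4, exact permutation p = 0.13, adjusted p = 0.417). Both differences were larger than their SD between mice. Their size depends on the gene length used, since that of Anxa5 over Anxa2 was 1.58 with the longest transcript and 1.18 without a length, and that of Anxa6 over Anxa4 was 0.98 and 0.91 in turn. The other 6 neighbouring pairs did not differ beyond their spread, and in each of them at least 1 mouse had the opposite order. Anxa2 and Anxa1 differed by 0.19 ± 0.55, Anxa1 and Anxa6 by 0.34 ± 1.12, Anxa4 and Anxa7 by 0.44 ± 0.56 and Anxa7 and Anxa3 by 0.61 ± 0.87 (SD, n = 4). Anxa1 was below Anxa6 in mouse 1 only, where Anxa6 was highest of the 4 mice and Anxa1 lowest. The pairs with Anxa8 had the widest spread, at 1.44 ± 3.19 for Anxa3 over Anxa8 and 1.29 ± 3.68 for Anxa8 over Anxa11 (SD, n = 4).

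**Figure D3:**
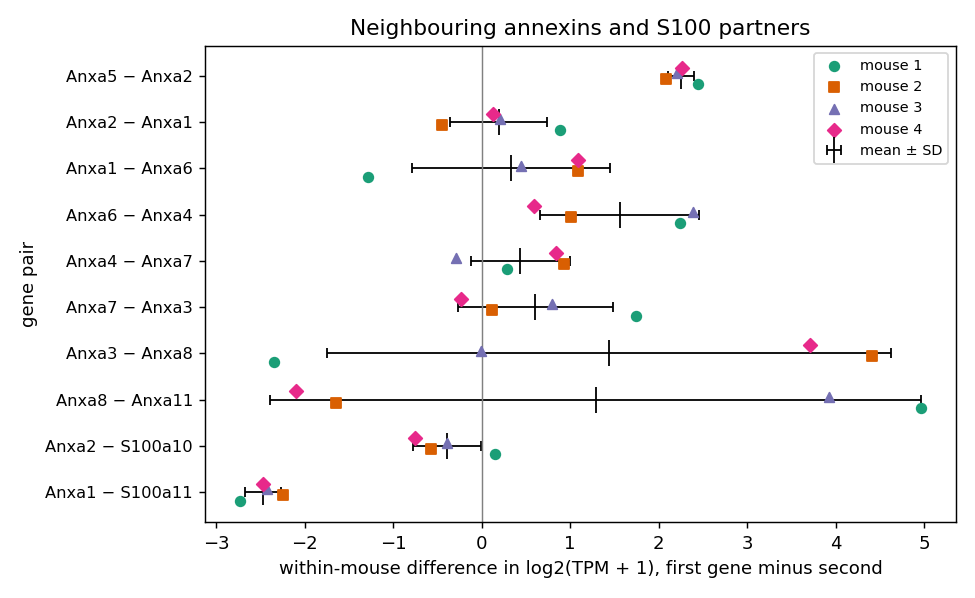
Within-mouse difference in log2(TPM + 1), first gene minus second (x axis), for the 8 neighbouring annexin pairs and the 2 pairs with an S100 partner (y axis), with 1 point for each mouse and the mean and SD over 4 mice in black. The points of Anxa5 against Anxa2, Anxa6 against Anxa4 and Anxa1 against S100a11 lie on a single side of 0.

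The 9 annexins together made up 1594, 1070, 1794 and 1017 TPM in mice 1 to 4, on average 1369 ± 385 TPM (SD, n = 4). Anxa5 alone was 58.9 ± 3.59% of this sum (SD, n = 4), and its share ranged only from 53.8% to 61.5%. Anxa5, Anxa2, Anxa1 and Anxa6 together were 91.9 ± 1.74% of it. Anxa2 kept a nearly even share, between 10.9% and 13.2%, whereas Anxa1 went from 5.84% in mouse 1 to 17.3% in mouse 2, and Anxa6 from 5.42% in mouse 4 to 14.3% in mouse 1. The sum was higher in mice 1 and 3, which are also the libraries with more counts. With DESeq2 size factors in place of the library total the sums were 1646, 1101, 1674 and 1026 TPM, and the part of depth in this difference was not tested.

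**Figure D4:**
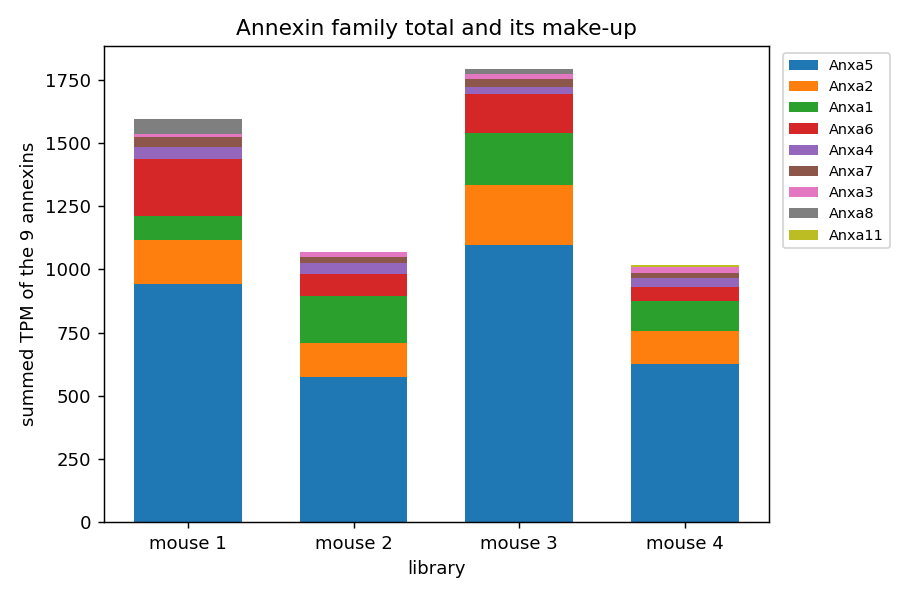
Summed TPM of the 9 annexins (y axis) in the library of each of the 4 mice (x axis), with the contribution of each annexin as a coloured segment. Anxa5 is at least 53.8% of each bar, and mice 1 and 3 have the taller bars.

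The S100 proteins are small calcium sensors, several of which bind the free end of an annexin and join it to a second copy. All 6 listed were expressed. S100a10, the partner of Anxa2, was at 156, 201, 312 and 219 TPM in mice 1 to 4, and exceeded Anxa2 in mice 2, 3 and 4 but not in mouse 1. The difference of Anxa2 from S100a10 was -0.39 ± 0.39 in log2(TPM + 1) (SD, n = 4, exact permutation p = 0.25, adjusted p = 0.625). S100a11, which binds Anxa1, was at 626, 883, 1112 and 664 TPM and exceeded Anxa1 in 4 of 4 mice. The difference of Anxa1 from S100a11 was -2.47 ± 0.20 (SD, n = 4, exact permutation p = 0.13, adjusted p = 0.417). Anxa1 and S100a11 both peaked in mouse 3 and were both lowest in mouse 1, a pattern not particular to this pair. All 6 listed S100 genes were highest in mouse 3. S100a10, S100a6 and S100a4 were also lowest in mouse 1, whereas S100b was lowest in mouse 4 and S100a1 in mouse 2. Serpine2 and Sri, described below, were likewise highest in mouse 3 and lowest in mouse 1. Anxa2, the partner of S100a10, was lowest in mouse 4. Copies of 95% identity or more also exist for 58.1% of the longest S100a11 transcript, and both S100 directions turned when gene length was left out. S100a6 was at 107 to 171 TPM, S100a1 at 337 to 558 TPM and S100b at 14.3 to 67.2 TPM. S100a4 was at 8.08 to 29.4 TPM, and copies of 95% identity or more exist for 60.6% of its longest transcript. It shares 51.7% of its exonic bases with the gene Gm42674 on the same strand, so its level is uncertain.

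Of 5 genes listed around Anxa7 and Anxa11, not all of them direct partners, 4 were expressed, while the receptors of Anxa1 were not detected. Pdcd6, a calcium sensor that binds both annexins, was at 85.7, 143, 124 and 108.2 TPM in mice 1 to 4, well above Anxa11 in each. Sri, the sorcin that binds Anxa7, was at 35.6 to 70.0 TPM and Pef1 at 24.7 to 80.0 TPM, and Gca was at 0 counts in all mice. Pdcd6ip, which binds Pdcd6, was at 12.04 to 23.5 TPM. Of the formyl peptide receptors through which released Anxa1 and its peptides signal, all 5 listed genes, Fpr1, Fpr2, Fpr3, Fpr-rs3 and Fpr-rs4, had 0 counts in all 4 libraries. A count of 0 allows up to the 3-count limit given above, which covers counting error only.

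Anxa2 with S100a10 is known to gather plasminogen and its activator at the cell surface, and 4 of the 7 plasmin genes listed were expressed. Of the 7, 3 exceeded 1 TPM in each library. Serpine2, which inhibits plasmin and its activators, was by far the highest of them, at 898, 2018, 2821 and 1063 TPM in mice 1 to 4. Plgrkt, a plasminogen receptor, was even across mice at 17.9 to 22.5 TPM, and Plaur, the receptor of urokinase, was at 13.6, 5.87, 41.5 and 4.99 TPM. The activators were scarce, with Plat at 29, 0, 135 and 0 counts and Plau at no more than 1 count in any mouse, and plasminogen itself, Plg, was at 0 counts. Serpine2 thus stood above Plat, Plau and Plg in every mouse.

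Anxa5, Anxa2 and Anxa6 are matrix vesicle proteins, and all 7 listed genes of matrix vesicle mineralization were expressed by the median cutoff. Only 4 of the 7 exceeded 1 TPM in each library. Among protein-coding genes the shares were 44.2% and 30.1%. Alpl, the phosphatase that frees phosphate for mineral, was at 892, 550, 963 and 573 TPM in mice 1 to 4. Among all protein-coding genes it was the one whose level over the 4 mice was most like that of Anxa5, with a root mean square difference of 0.13 in log2(TPM + 1), and 54 genes were within 0.5. The ratio of Anxa5 to Alpl was 1.06, 1.05, 1.14 and 1.09, which restates this closeness and adds no support to it. Its size depends on gene length. In 1000000 counts, without a length, Anxa5 was at 678, 437, 789 and 506 and Alpl at 1454, 947, 1569 and 1050. Smpd3, a sphingomyelinase needed for bone mineral, was at 229, 121, 251 and 107 TPM. Phospho1, the phosphatase inside the vesicles, was low, at 7.87, 0.0886, 2.77 and 1.91 TPM. Both were higher in mice 1 and 3 than in mice 2 and 4, as Anxa5 was, whereas the other 4 genes were not. Enpp1, which makes the mineral inhibitor pyrophosphate, was at 7.27, 27.1, 26.4 and 10.1 TPM, and Ank, which takes part in its export, at 35.5, 37.5, 114 and 52.1 TPM. The phosphate transporters Slc20a1 and Slc20a2 were at 6.75, 3.71, 0.0726 and 2.12 TPM and at 0.841, 16.6, 10.9 and 7.01 TPM. Enpp1, Ank and Slc20a2 were lowest in mouse 1, and Slc20a1 in mouse 3. This likeness is a description over 4 mice, and the measure counts a like level and a like pattern together.

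**Figure D5:**
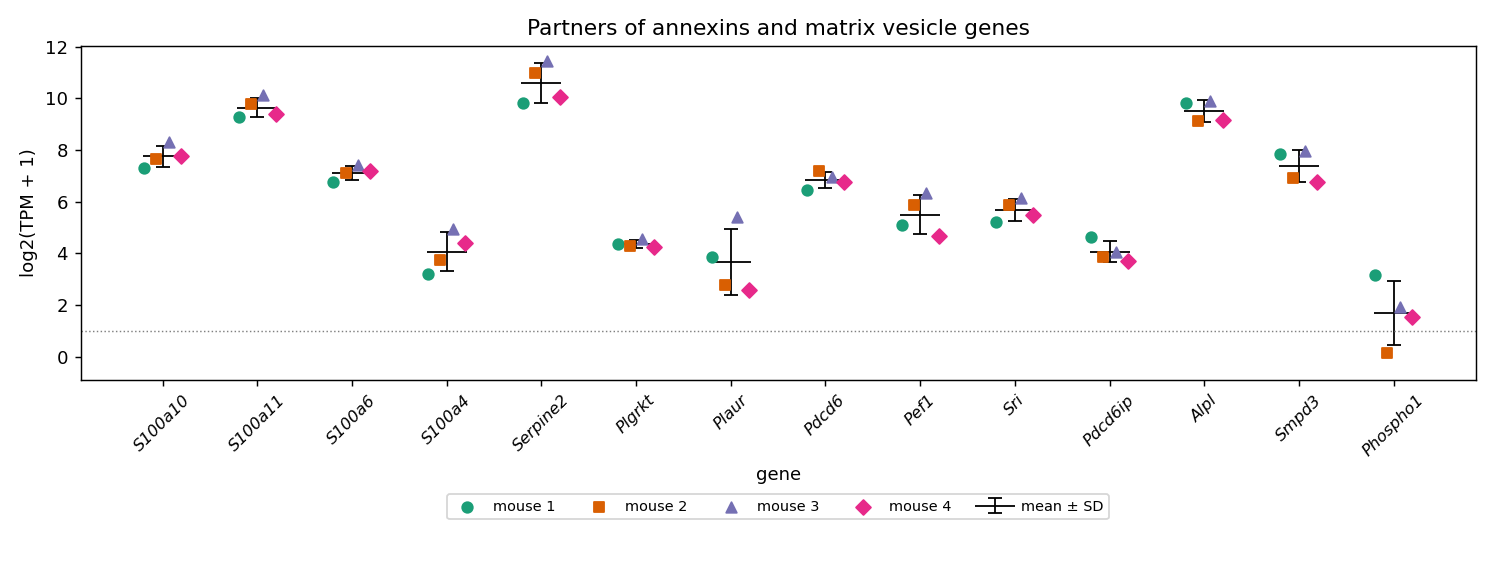
Levels of S100 partners, plasmin genes, penta-EF-hand genes, Pdcd6ip and matrix vesicle genes (x axis) as log2(TPM + 1) (y axis). Shown are 1 point for each mouse, the mean and SD over 4 mice in black and a dotted line at 1 TPM. Serpine2, S100a11 and Alpl are the highest, and Plaur and Phospho1 spread widely between mice.

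Anxa1 and Anxa3 are also made by myeloid cells, so the markers of these cells are given beside them. The 8 neutrophil markers summed to 39.7, 19.7, 6.84 and 7.84 TPM in mice 1 to 4, with 3 of 8 expressed and Ngp, Ltf and Retnlg at 0 counts in all mice. Anxa1 and Anxa3 were both lowest in mouse 1, where this sum was highest, mostly through Elane and S100a8, while S100a9 was highest in mouse 2. The part of these cells in the level of Anxa1 or Anxa3 was not tested. The 7 macrophage markers summed to 16.5, 28.2, 36.8 and 9.11 TPM, with Adgre1, Csf1r and C1qa at 0 counts in all mice and Mertk and Cd163 as the 2 that were expressed. The sum was highest in mouse 3, where C1qb at 9.36 TPM and Cd68 at 6.63 TPM added to it, although neither was expressed by the cutoff. Mertk, at 12.6, 18.9, 13.2 and 3.39 TPM, and Cd163, at 3.38, 9.28, 7.60 and 5.33 TPM, were highest in mouse 2, while Anxa1 was highest in mouse 3. The 5 endothelial markers summed to at most 1.28 TPM, with Cdh5 and Kdr at 0 counts.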

How the data were processed

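RNA of 100 sorted MSCs from each of 4 mice was copied to full-length cDNA with an oligo-dT primer, then amplified and tagmented. The authors used STAR on GRCm39 and, for pairs mapped to 1 place, featureCounts from Subread 1.6.5 on Ensembl exons, with no strand option given, and deposited the raw counts. TPM was computed in Python 3.11.15 (numpy 2.4.6, pandas 2.3.3) from the deposited counts and exon lengths of GENCODE M21 on GRCm38, while the counts are on GRCm39. All 9 annexins have a length there, 4855 other genes do not. No coordinates were converted. Near-identical stretches were searched with BLAST 2.17.0 at 95% identity over at least 100 bases. Scaling factors came from edgeR 4.0.16 and DESeq2 1.42.0. Code was tested on simulated data. PCR copies are not independent molecules, so counting errors and floors cover counting only. PCR and tagmentation of short transcripts may lower their TPM, which was not tested.

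The named genes were the 9 members, the other annexins, the listed partners and cell type markers, and for each member its nearest gene. The members and lists were chosen with earlier results of these data known. Alternatives were another length, no length, other scalings, a filter of 10 counts, other cutoffs, a pseudocount of 0.1 and leaving out each mouse. One listed marker gene is not reported here.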

Additional observations from a re-analysis of the deposited data

Results flagged for a closer look

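Of 26 values compared over the 4 mice, among them the 9 annexins, their sum and their listed partners, 1 stood apart by Dixon's criterion, for which chance alone gives about 1.3. The number of genes with at least 1 count was 16109 in mouse 2 and 18683 to 18907 in the other mice, a gap of 0.920 of the whole range and beyond the 95% critical value for 4 samples. Anxa8 is the annexin that touches this library, with 0 counts in mouse 2. None of the 9 annexins had a mouse beyond that value.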

How the results depend on the processing

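The number of expressed annexins was 8 without any 1 mouse, losing Anxa8 without mouse 1 or 3 and Anxa11 without mouse 2 or 4, and between 7 and 9 over 13 alternatives. The median of the 9 mean levels was 38.6 TPM, and became 53.3 TPM with the length of the longest transcript, 75.6 in 1000000 counts without a length and 86.9 TPM over genes with at least 10 counts in every mouse, a filter that removes Anxa8. Without a length, Anxa2 stood above S100a10 by 1.22 and Anxa1 above S100a11 by 0.030 in log2(value + 1), the reverse of the TPM result, since S100a10 has 1212 exonic bases against 3731 for Anxa2. The difference of Anxa2 from Anxa1 lay between -0.040 and 0.41 across the fits that left out 1 mouse, and was negative without mouse 1. The other differences kept their direction in all alternatives, although Anxa5 over Anxa2 fell from 2.25 to 1.58 with the longest transcript and to 1.18 without a length. By median, Anxa1 ranked above Anxa2 with the longest transcript and without mouse 1 or 4, Anxa6 above Anxa1 without mouse 2, Anxa8 above Anxa3 without mouse 2 or 4, and Anxa11 above Anxa8 without mouse 1 or 3. Anxa8 had a mean of 6.80 TPM without mouse 1 and Anxa11 of 1.13 TPM without mouse 4, so each rests on that library. Of the 36 pairs of annexins, 27 had the same order in all mice, and between 27 and 31 did in the alternatives that kept all 9 members. With the filter of 10 counts it was 23 of 28 pairs. No paired analysis was possible because all libraries form 1 group and no groups of mice are compared. The 10 gene comparisons are themselves made within mice. With 4 mice none of them can reach 0.05, whatever the depth.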

Other observations

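Genes of membrane repair and of phosphatidylserine exposure, processes in which annexins bind the lipid, were also read from the libraries. Of 12 repair genes, 10 were expressed and 7 exceeded 1 TPM in each library. Cavin1, a coat protein of caveolae, was the most even, at 18.1 to 20.8 TPM in all 4 mice, whereas Cav1, its partner in caveolae, had 466, 0, 112 and 0 counts in mice 1 to 4. Capns1 and Capn2, subunits of calpain proteases, were at 32.1 to 91.3 and 13.1 to 31.2 TPM. Trim72, a repair protein of muscle, had 1 count in all 4 libraries together. Of 7 genes of phosphatidylserine exposure, 6 were expressed and 5 exceeded 1 TPM in each library. Tmem30a, the subunit that flippases need, was highest at 41.4 to 110 TPM, and the scramblase Ano6 was at 9.45 to 28.6 TPM. Xkr8, the scramblase of dying cells, was at 0.0527, 0.0208, 1.45 and 6.17 TPM in mice 1 to 4 and did not reach a median TPM of 1.

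By the same measure that placed Alpl nearest to Anxa5, the nearest protein-coding genes were Cwc15 for Anxa2, Lamtor2 for Anxa1, Taldo1 for Anxa6, Gpbp1 for Anxa4, Gpi1 for Anxa7, Ptpn12 for Anxa3, Ubac1 for Anxa8 and Zfp626 for Anxa11, with root mean square differences of 0.07 to 0.28 in log2(TPM + 1) over 4 mice. Only 4 genes lay within 0.5 of Anxa8, against 346 of Anxa7.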
